A study of Mus musculus with 4 samples.

Results

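The levels and splicing of 10 hnRNP genes other than the deleted one were examined in thymocytes of hnRNP L KO mice. The genes are Hnrnpa1, Hnrnpa2b1, Hnrnpc, Hnrnpd, Hnrnpf, Hnrnph1, Hnrnpk, Hnrnpm, Hnrnpr and Hnrnpu, which are 10 of the 22730 gene symbols in the expression data. The choice was made by gene symbol, with earlier results of these data known. These genes had 26 of the 28283 transcript rows and 185 of the 188794 exon-exon junctions with a read. RNA was taken from total thymocytes, the developing T cells of the thymus at all their stages, of 2 hnRNP L KO mice and 2 wild-type mice, with 1 library per mouse. The ribosomal RNA was depleted and the libraries were sequenced as short single fragments. The genotype labels are hnRNP L KO and wild type, and the same mixed background is given for all 4 mice: C57BL/6 with CD45.1, an LckCre transgene (Cre driven by the T cell promoter Lck) and the fluorescent reporter allele Gt(ROSA)26Sortm4(ACTB-tdTomato,-EGFP)Luo. The sources used here do not state which mice carried Cre, or their age.

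Heterogeneous nuclear ribonucleoproteins (hnRNPs) coat pre-mRNA as it is made and take part in splicing, export, stability and translation. Many bind splicing silencers or enhancers and so compete with, or act beside, one another and the SR proteins. Several of their own transcripts carry alternative exons, and some of the family are known to control the splicing of their own or each other's transcripts.

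Hnrnpl itself had 467 and 208 CPM (counts scaled to library size with TMM) in the 2 KO libraries, against 854 and 813 CPM in the 2 wild-type libraries. Both KO libraries lay below both wild types and neither was at 0, and the log2 fold change of -1.30 (SE 0.42) did not pass edgeR's quasi-likelihood test over all genes (adjusted p = 0.486). Gene reads numbered 27548708 and 28677506 in KO, against 41775795 and 51544714 in wild type. The KO mice differed in sex: Ddx3y (Y-linked) had 4116 and 1 reads in KO, against 17 and 1 in wild type, and Xist had 222 and 87390 reads in KO, against 57852 and 85249 in wild type. Small RNA genes and their hosts took 3.65% and 2.75% of gene reads in KO, against 9.996% and 3.001% in wild type, so wild-type replicate 1 stood apart. All 12 thymocyte markers were in the tables and none was at 0, with a summed level of 19015 and 14898 CPM in KO, against 18798 and 18182 CPM in wild type. The 6 erythroid markers in the tables summed to 460 and 93.6 CPM in KO, against 146 and 129 CPM in wild type. Stroma and epithelium markers (8) summed to 40.8 and 104 CPM in KO, against 56.2 and 48.2 CPM in wild type. B cell markers (5) lay between 31.5 and 38.8 CPM and myeloid markers (7) between 123 and 137 CPM in all libraries. The part of these differences in the results below was not tested.

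The first question was whether the other hnRNP genes differed in level where hnRNP L was reduced. None of the 10 passed the edgeR test over all 13733 genes tested, in which 1 gene was called higher (0.00728%; Gh, named here after its values were seen) and 0 lower (0.0%). All 10 passed the filter on low counts. At an unadjusted p under 0.05 there was 1 member, Hnrnpa2b1, on the higher side, where 6.29% of all genes lay, and 0 on the lower side, where 3.61% lay. DESeq2 and limma-voom called 0 members as well. The median log2 fold change of the 10 was 0.095, beside 0.008 over all genes tested, with 6 positive and 4 negative. In 5 members both KO libraries lay above both wild types, as in 23.3% of all genes, in 2 both lay below, as in 21.4%, and in 3 the groups overlapped. In such bulk libraries, fewer cells of a type and less RNA per cell cannot be told apart. The labels call the libraries separate mice, so the replicates are 2 mice per group. The edgeR fit draws each gene's variance towards that of all genes. Its p-values and SEs therefore do not measure the gene's own spread between mice alone.

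**Figure D1:**
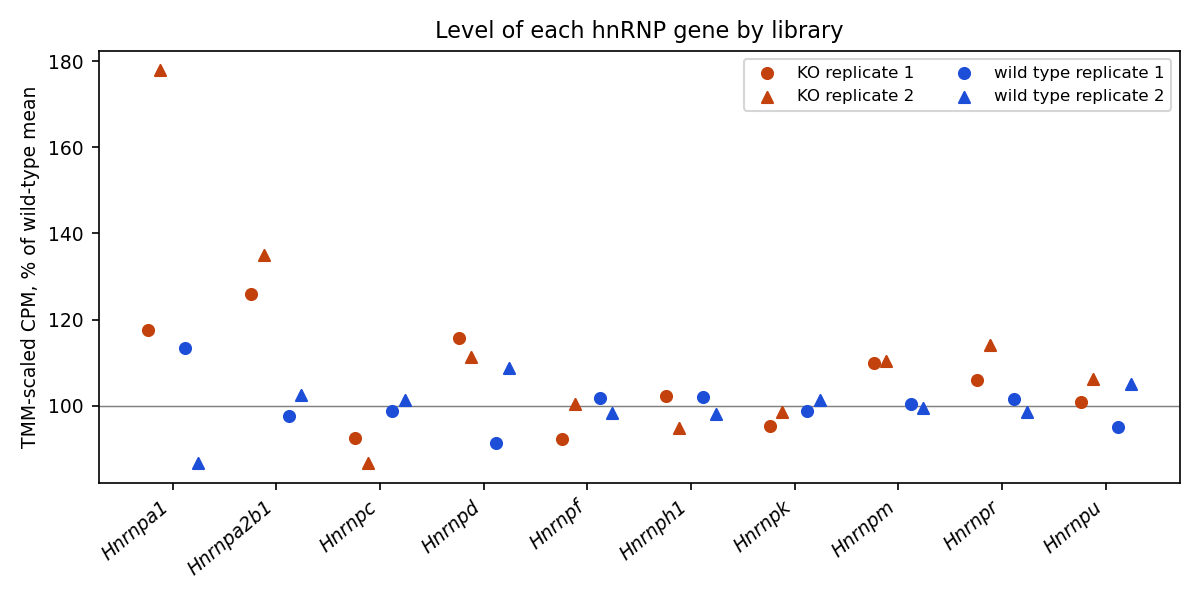
Level of each of the 10 hnRNP genes in each library, as TMM-scaled CPM in percent of the wild-type mean of that gene (vertical axis, not starting at 0; the line marks 100%). Circles are replicate 1 and triangles replicate 2, with KO in orange left of wild type in blue. Hnrnpa2b1 lies at 126% and 135% in KO. In 7 of the 10 genes the groups do not overlap, 5 with KO above and 2 with KO below. Over all genes tested, KO lies above in this way in 23.3% and below in 21.4%.

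Per unit of transcript length, the genes covered a wide range of levels. Hnrnpu, which codes for scaffold attachment factor A, a chromatin-associated RNA-binding protein, stood highest, with 160 ± 8.75 RPKM in KO and 154 ± 18.0 RPKM in wild type (SD, n = 2 each; RPKM is the authors' length- and depth-scaled read value). Hnrnpa2b1 followed with 74.7 ± 5.02 RPKM in KO and 56.9 ± 4.54 RPKM in wild type. Hnrnph1 averaged 40.4 ± 1.43 RPKM in KO and 40.8 ± 0.689 RPKM in wild type. The next were Hnrnpk (31.2 and 32.1 RPKM, KO and wild-type means), Hnrnpc (27.6 and 30.6), Hnrnpm (24.04 and 21.7) and Hnrnpr (19.9 and 18.0). Hnrnpf (8.55 and 8.84) and Hnrnpd (9.14 and 8.04) were lower, and Hnrnpa1 was lowest (1.15 ± 0.351 RPKM in KO and 0.768 ± 0.111 RPKM in wild type). Neighbours in this order did not overlap in either group, except Hnrnpk with Hnrnpc and Hnrnpf with Hnrnpd, which overlapped among the wild types. By mean RPKM the genes ran from the 50.2nd percentile (Hnrnpa1) to the 99.4th (Hnrnpu) of genes with reads. Much of the coding sequence of Hnrnpa1, Hnrnpf, Hnrnpk, Hnrnpc and Hnrnpr also occurs at other loci, as described below. Their levels and places in this order are therefore uncertain. Hnrnpk, for example, had 22952 known junction reads over all libraries, against 15016 for Hnrnpa2b1, which stands above it by RPKM.

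The A/B group holds RNA-binding proteins with 2 RNA recognition motifs and a glycine-rich tail. Hnrnpa2b1 (NM_016806, mm9 chr6:51410434-51419893, minus strand) codes for hnRNP A2 and B1, which act in splicing and in the transport of mRNA. It had 726 and 779 CPM in KO, against 563 and 591 CPM in wild type. Both KO libraries lay above both wild types, at 126% and 135% of the wild-type mean. The log2 fold change was 0.38 (SE 0.14), with an unadjusted p of 0.0233 and an edgeR adjusted p of 0.475. Its second transcript row, NM_182650, which is shorter and shares reads with the first, had a log2 fold change of 0.42 (SE 0.12, edgeR adjusted p = 0.436). Reads across its known junctions come from the same libraries, so they are not independent of the gene count. They had 969 and 1088 CPM in KO, against 685 and 807 CPM in wild type. They gave a log2 fold change of 0.46 (SE 0.16, edgeR adjusted p = 0.449). Over 14 alternative settings the log2 fold change of Hnrnpa2b1 ran from 0.33 to 0.46, and its adjusted p from 0.0871 to 0.998. No other member had an unadjusted p under 0.05 in the transcript row used for the test.

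Hnrnpa1 (NM_001039129, chr15:103070863-103075386, plus strand), which codes for a classical splicing repressor, had 119 and 202 reads in KO, against 162 reads in each wild type. On the CPM scale these were 4.31 and 6.52 in KO, against 4.16 and 3.18 in wild type, so the groups did not overlap but KO replicate 1 and wild-type replicate 1 lay close together. The log2 fold change was 0.57 (SE 0.29, edgeR adjusted p = 0.529), and it was 0.83 without KO replicate 1, 0.24 without KO replicate 2, 0.78 without wild-type replicate 1 and 0.39 without wild-type replicate 2. The second Hnrnpa1 row, NM_010447, had 62 and 109 reads in KO, against 66 and 52 reads in wild type, with a log2 fold change of 1.09 (SE 0.39, unadjusted p = 0.0229, edgeR adjusted p = 0.468). Known junctions of Hnrnpa1 had 33 and 53 reads in KO, against 60 and 46 reads in wild type. These were 10.1 and 14.9 CPM in KO, against 12.9 and 7.71 CPM in wild type, so here the groups overlapped (log2 fold change 0.30, SE 0.36, edgeR adjusted p = 0.862). Its coding sequence has near copies elsewhere, described below, so the count is uncertain.

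Hnrnpc (NM_016884, chr14:52693055-52723703, minus strand), a protein that binds uridine tracts and competes with splicing factors for them, had 200.0 and 187 CPM in KO, against 213 and 219 CPM in wild type. Both KO libraries lay below both wild types, and the log2 fold change was -0.16 (SE 0.12, edgeR adjusted p = 0.626). Hnrnpd (NM_001077265, chr5:100384955-100407957, minus strand), also called AUF1, binds AU-rich elements of mRNA and bears on their decay. It had 157 and 151 CPM in KO, against 124 and 147.1 CPM in wild type. The KO libraries were above both wild types but close to wild-type replicate 2, and the log2 fold change was 0.18 (SE 0.13, edgeR adjusted p = 0.616), with 0.067 without wild-type replicate 1 and 0.32 without wild-type replicate 2.

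Hnrnpf and Hnrnph1 code for the closely related F and H proteins, which bind runs of G and regulate splicing and polyadenylation. Hnrnpf (NM_001166427, chr6:117867312-117875640, plus strand) had 46.1 and 50.2 CPM in KO, against 50.9 and 49.1 CPM in wild type. Hnrnph1 (NM_021510, chr11:50191221-50200030, plus strand) had 230 and 214 CPM in KO, against 230 and 221 CPM in wild type. The groups overlapped in both genes, with log2 fold changes of -0.06 (SE 0.11) and -0.02 (SE 0.12). Their edgeR adjusted p was 0.868 and 0.957.

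Hnrnpk (NM_025279, chr13:58493312-58503877, minus strand), a KH-domain protein that binds C-rich RNA and DNA, had 149.8 and 154.9 CPM in KO, against 155.2 and 159.5 CPM in wild type. The groups did not overlap, by a narrow margin, and the log2 fold change was -0.05 (SE 0.11, edgeR adjusted p = 0.889). Hnrnpm (NM_029804, chr17:33783178-33822403, minus strand), a splicing regulator, had 150.02 and 150.6 CPM in KO, against 137 and 136 CPM in wild type. The 2 libraries of each group lay close together and the groups did not overlap. The log2 fold change of 0.14 (SE 0.11) did not pass (edgeR adjusted p = 0.648). This SE uses a variance drawn towards that of all genes, not the gene's own spread alone. Hnrnpr (NM_028871, chr4:135866891-135896593, plus strand), a relative of the protein Syncrip, had 126 and 136 CPM in KO, against 121 and 117.5 CPM in wild type. Both KO libraries were above both wild types, with a log2 fold change of 0.14 (SE 0.12, edgeR adjusted p = 0.663) that was 0.084 without KO replicate 2. Hnrnpu (NM_016805, chr1:180258431-180267915, minus strand) had 1415 and 1491 CPM in KO, against 1331 and 1474 CPM in wild type. The groups overlapped, with a log2 fold change of 0.05 (SE 0.15, edgeR adjusted p = 0.912).

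The other hnRNP family genes and close relatives were counted from a list of 33 symbols, of which 28 were in the files and 27 were tested. By edgeR and by limma-voom 0 passed over all genes. DESeq2 called 1, Cirbp, where it called 103 over all genes. With no filter on low counts edgeR also called Cirbp, where it called 62 over all genes. At an unadjusted edgeR p under 0.05, 3 were higher and 2 lower, where 6.29% and 3.61% of all genes lay. There were 15 positive and 12 negative log2 fold changes, with a median of 0.12. In 12 of the list both KO libraries lay above both wild types, as in 23.3% of all genes. In 9 both lay below, as in 21.4%. Ewsr1, an RNA-binding protein, had 122 and 125 CPM in KO, against 89.3 and 91.8 CPM in wild type (log2 fold change 0.45, SE 0.11, edgeR adjusted p = 0.414). Cirbp and Rbm3, which are both cold-inducible RNA-binding proteins, lay on opposite sides. Cirbp had 84.6 and 83.6 CPM in KO, against 58.8 and 49.7 CPM in wild type (log2 fold change 0.63, SE 0.12, edgeR adjusted p = 0.343). Rbm3 had 57.6 and 63.6 CPM in KO, against 80.0 and 69.4 CPM in wild type (log2 fold change -0.30, SE 0.12, edgeR adjusted p = 0.493). Hnrnpa3, an A/B group gene, had 48.1 and 68.7 CPM in KO, against 42.3 and 41.6 CPM in wild type (log2 fold change 0.48, SE 0.17, edgeR adjusted p = 0.475). In each of these 4 genes the groups did not overlap. They were picked by their unadjusted edgeR p in the same libraries, so this adds no support. The fifth gene picked in this way was Hnrnpl itself.

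**Figure D2:**
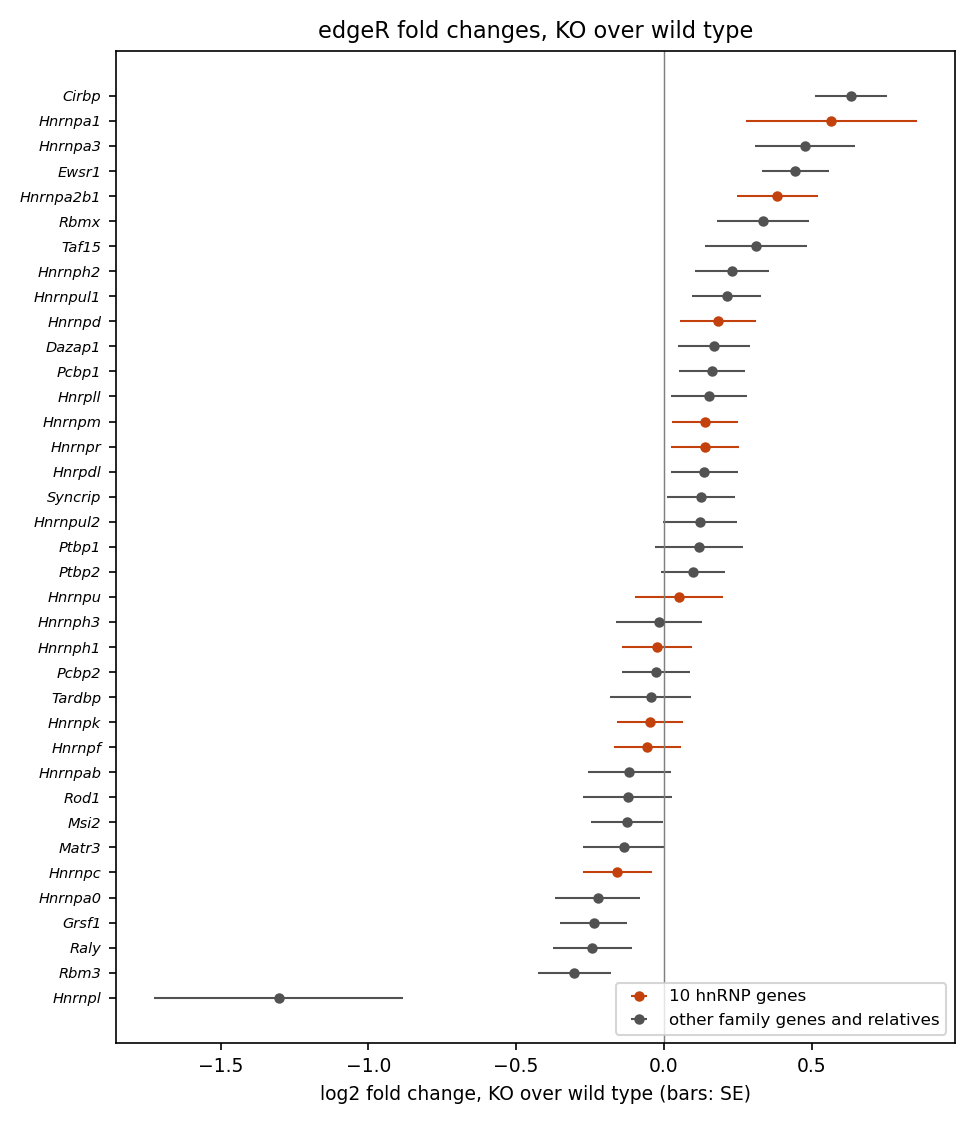
Log2 fold change, KO over wild type, from edgeR's fit over all genes for the 10 hnRNP genes (orange) and 27 other family genes and relatives (grey), sorted by value, with the standard error as bars. Hnrnpl lies lowest at -1.30 and Cirbp highest at 0.63; the 10 hnRNP genes lie between -0.16 and 0.57, and none passed the edgeR test over all genes.

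Splicing of the members' own transcripts was asked next, since hnRNP proteins act on splicing. Sequences are shown for alternative coding stretches of Hnrnpc, Hnrnpd and Hnrnpk whose junction shares are given below, in order to show what each isoform gains. The junction that skips the Hnrnpk exon is not in the annotation. They were read from GENCODE M21 transcripts (GRCm38), matched to the mm9 junctions by exon and intron lengths, and run 5′ to 3′ on the transcript strand. Capitals mark the alternative stretch and lower case up to 30 bases of coding sequence on each side.
Hnrnpc 3′ extension of exon 4: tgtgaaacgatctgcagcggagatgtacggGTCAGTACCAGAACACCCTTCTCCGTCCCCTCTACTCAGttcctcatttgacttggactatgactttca
Hnrnpd exon 2: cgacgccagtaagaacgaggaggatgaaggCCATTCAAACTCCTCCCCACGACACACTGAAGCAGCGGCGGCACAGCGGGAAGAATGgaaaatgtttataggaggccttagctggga
Hnrnpd exon 7: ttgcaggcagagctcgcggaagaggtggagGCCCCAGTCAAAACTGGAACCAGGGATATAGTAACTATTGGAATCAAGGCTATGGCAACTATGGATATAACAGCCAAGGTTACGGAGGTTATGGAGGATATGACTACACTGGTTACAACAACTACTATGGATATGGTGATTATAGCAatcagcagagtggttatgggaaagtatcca
Hnrnpk exon 9: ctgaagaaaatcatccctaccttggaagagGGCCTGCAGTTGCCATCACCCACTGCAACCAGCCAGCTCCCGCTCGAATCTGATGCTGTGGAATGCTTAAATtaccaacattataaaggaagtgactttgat
Each stretch is a multiple of 3 bases long and lies in coding sequence. Their mm9 positions are chr5:100405553-100405609 and chr5:100392750-100392896 for exons 2 and 7 of Hnrnpd, chr13:58497549-58497620 for exon 9 of Hnrnpk, and chr14:52701464-52701502 for the 3′ extension of exon 4 of Hnrnpc, all on the minus strand.

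Usage of each junction relative to the others of its gene was tested with edgeR's diffSpliceDGE over 95139 junctions in 9475 genes, of which 4 were called (0.0042%; in Cd8b1, Dpp4, Diap1 and Ptprc, named here after their values were seen). Of 118 junctions in the 10 hnRNP genes, 0 were called. At an unadjusted p under 0.05 there was 1, on the lower side, where 1.24% of all junctions lay, and 0 on the higher side, where 1.31% lay. limma's diffSplice and the other alternatives called 0 members' junctions as well. By the Simes test per gene, the adjusted p was 1.00 for each of the 10 genes.

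That junction, chr14:52700982-52701464, belongs to Hnrnpc and joins the longer form of exon 4 to exon 5. It carries the 39-base extension shown above, which makes the C2 form of the protein, while the other donor makes the C1 form. The longer-form junction had 47 and 50 reads in KO, against 150 and 140 reads in wild type. The junction of the shorter form (chr14:52700982-52701503) had 64 and 71 reads in KO, against 93 and 136 reads in wild type. Of the reads at their shared acceptor, the longer form took 42.0% (exact Clopper-Pearson 95% interval 32.7 to 51.7%) and 41.3% (32.4 to 50.6%) in KO, against 61.7% (55.3 to 67.9%) and 50.7% (44.7 to 56.8%) in wild type. The KO libraries lay close together and below both wild types, which differed from each other by more than the gap between the groups. The change in usage was -0.76 on the log2 scale (unadjusted p = 0.0234, edgeR adjusted p = 1.00). It ran from -0.52 without wild-type replicate 1 to -0.96 without wild-type replicate 2. Transcript rows count the extension in another way, since NM_016884 contains it and NM_001170981 does not. Both counts come from the same libraries and can include the same reads, so they are not independent. The comparison was also chosen after values had been seen. The reads that the longer row had beyond the shorter one were 52 and 64 in KO, against 141 and 167 in wild type. These were 0.942% and 1.10% of the row's reads in KO, against 1.70% and 1.497% in wild type, and the groups did not overlap.

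Junctions that share a donor or acceptor with another junction of their gene were described by their share of the reads at that site. Sites with at least 100 reads over the 4 libraries and shares from 5 to 95% of them were kept. There were 6296 such shares, of 5396 junctions in 1695 genes, and both KO libraries lay above both wild types in 19.1% of them and below both in 19.0%. In the members there were 52 shares of 42 junctions in 8 genes, 10 junctions being counted at both ends, with 11 shares above, 12 below and 29 overlapping. Shares at 1 site sum to 100%, so they are not independent. Their median absolute difference was 4.95 percentage points, beside 5.05 over all genes. At 1 acceptor of Hnrnpf, 5 known junctions end, of which 3 had a share between 5 and 95% and are given here. The junction from chr6:117856857 took 22.7% and 19.8% of its acceptor's reads in KO, against 10.2% and 14.7% in wild type, and the groups did not overlap. That from chr6:117850524 took 12.8% and 7.69% in KO, against 16.1% and 13.1% in wild type, and that from chr6:117857226 took 59.3% and 67.6% in KO, against 70.5% and 66.0% in wild type. In the third case the groups overlapped. At a donor of Hnrnpc (chr14:52695288), 3 acceptors took 34.4%, 59.8% and 5.74% in KO replicate 1 and 27.8%, 68.1% and 4.17% in KO replicate 2, against 22.6%, 69.6% and 7.83% in wild-type replicate 1 and 35.3%, 58.3% and 6.37% in wild-type replicate 2. The groups overlapped for the 2 well-used acceptors, and the third was lower in both KO libraries on 7 and 3 reads. At the 3′ end of Hnrnpa2b1, the acceptor whose intron runs chr6:51411432-51413410 took 6.84% and 12.1% in KO, against 10.9% and 9.62% in wild type, with overlap. From the donor of the first intron of Hnrnpa2b1, a junction not in the annotation that runs past later exons (chr6:51416221-51419670) took 0 of 20 and 2 of 22 reads in KO, against 5 of 44 and 5 of 47 reads in wild type, and 0 of 20 allows a share of up to 15.0%.

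Whole exons were tested where the junctions on both sides and the junction that skips them had reads. Of 3137 exons over all genes, 0 passed edgeR's test, 185 had an unadjusted p under 0.05 (5.9%) and the smallest adjusted p was 0.0766. The members had 20 such exon rows in 9 genes, with 0 called (0.0%) and 1 at an unadjusted p under 0.05. In 6 rows both KO libraries lay above both wild types, as in 22.3% of all exons, and in 4 both lay below, as in 14.9%. Among the 7 Hnrnpu rows, 6 rested on a single well-read inclusion junction, the other having under 10 reads. Of the other 14 rows, 3 had both KO libraries above and 2 had both below. All 7 Hnrnpu rows had inclusion of 97.0% or more in every library.

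Exon 7 of Hnrnpd (147 nt), one of the 2 exons by which the AUF1 isoforms differ, had an inclusion of 50.5% and 60.7% in KO, against 49.01% and 49.2% in wild type. Only KO replicate 2 stood clear of the wild types (edgeR adjusted p = 0.969). The share on its upstream side lay at 55.6% and 60.5% in KO, against 47.4% and 49.4% in wild type, with no overlap, while that on its downstream side lay at 44.1% and 60.9% in KO, against 50.5% and 49.1% in wild type, with overlap. Exon 2 of Hnrnpd (57 nt) had an inclusion of 76.8% and 72.3% in KO, against 74.9% and 57.9% in wild type, and the groups overlapped. The share on its upstream side lay at 18.2% and 31.3% in KO, against 22.6% and 16.9% in wild type, while that on its downstream side lay at 86.5% and 82.7% in KO, against 85.0% and 71.8% in wild type. Reads of the transcript row with exon 2 beyond those of the row without it were 1.55% and 1.74% of the longer row's reads in KO, against 1.41% and 1.37% in wild type, and the groups did not overlap. For exon 7 this measure was 9.68% and 11.02% in KO, against 9.95% and 10.5% in wild type, with overlap.

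Exon 9 of Hnrnpk (72 nt) had an inclusion of 93.0% and 93.8% in KO, against 88.9% and 88.0% in wild type. The groups did not overlap, with a difference of means of 4.98 percentage points (log2 odds change 0.89, edgeR adjusted p = 0.851). Exon 7 of Hnrnpk (44 nt) had 98.2% and 97.3% in KO, against 99.2% and 99.4% in wild type, on 6 and 8 skipping reads in KO and 4 in each wild type (edgeR adjusted p = 0.729). Exon 5 of Hnrnpk (98 nt) lay at 98.8% and 100% in KO, against 99.5% and 99.9% in wild type, with overlap. The junctions that skip these Hnrnpk exons are not in the annotation.

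Exon 2 of Hnrnpr (169 nt, chr4:135870002-135870170), which holds the annotated start of the coding sequence, had an inclusion of 61.0% and 62.4% in KO, against 50.8% and 48.2% in wild type. Both KO libraries lay above both wild types, with means of 61.7 ± 0.974% in KO and 49.5 ± 1.87% in wild type (SD, n = 2 each). The difference of 12.2 percentage points did not pass (log2 odds change 0.72, edgeR adjusted p = 0.921). Its skipping junction is not in the annotation and had 24 and 32 reads in KO, against 60 and 64 reads in wild type. At the donor upstream, inclusion took 66.2% (exact Clopper-Pearson 95% interval 54.0 to 77.0%) and 68.9% (59.1 to 77.7%) of reads in KO, against 57.1% (48.5 to 65.5%) and 55.9% (47.4 to 64.1%) in wild type.

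In Hnrnph1 the groups overlapped at exon 5 (139 nt; 81.2% and 80.9% in KO, against 76.7% and 81.7% in wild type). They overlapped at exon 11 (90 nt; 88.6% and 76.4% in KO, against 83.2% and 83.1% in wild type) and at exon 13 (50 nt; 93.4% and 86.4% in KO, against 86.5% and 92.1% in wild type). The junctions that skip these Hnrnph1 exons are not in the annotation. The groups also overlapped for the UTR exon 2 of Hnrnpc (26 nt, 38.6% and 49.5% in KO, against 40.8% and 36.1% in wild type). They overlapped for exon 3 of Hnrnpf (61 nt, UTR, 99.1% and 99.1% in KO, against 100% and 97.1% in wild type). For Hnrnpc exon 2 the sides behind this average differed. The upstream side lay at 17.3% and 15.2% in KO, against 14.4% and 12.5% in wild type, with no overlap. It rested on 9 and 5 inclusion reads in KO, against 13 and 12 in wild type. The downstream side lay at 51.1% and 64.1% in KO, against 54.7% and 49.7% in wild type, with overlap. Exon 14 of Hnrnpm (54 nt) had an inclusion of 100% and 72.7% in KO, against 100% in both wild types. The junction that skips this exon is not in the annotation. All 9 reads of its skipping junction came from KO replicate 2, 9 of the 36 reads at that donor, while 0 of 19 in KO replicate 1 and 0 of 36 and 0 of 31 in wild type allow shares of up to 15.8%, 8.33% and 9.68%. This exon gave the unadjusted p under 0.05 (0.0142, edgeR adjusted p = 0.729), and with the other KO library at 100% it rests on 1 library.

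**Figure D3:**
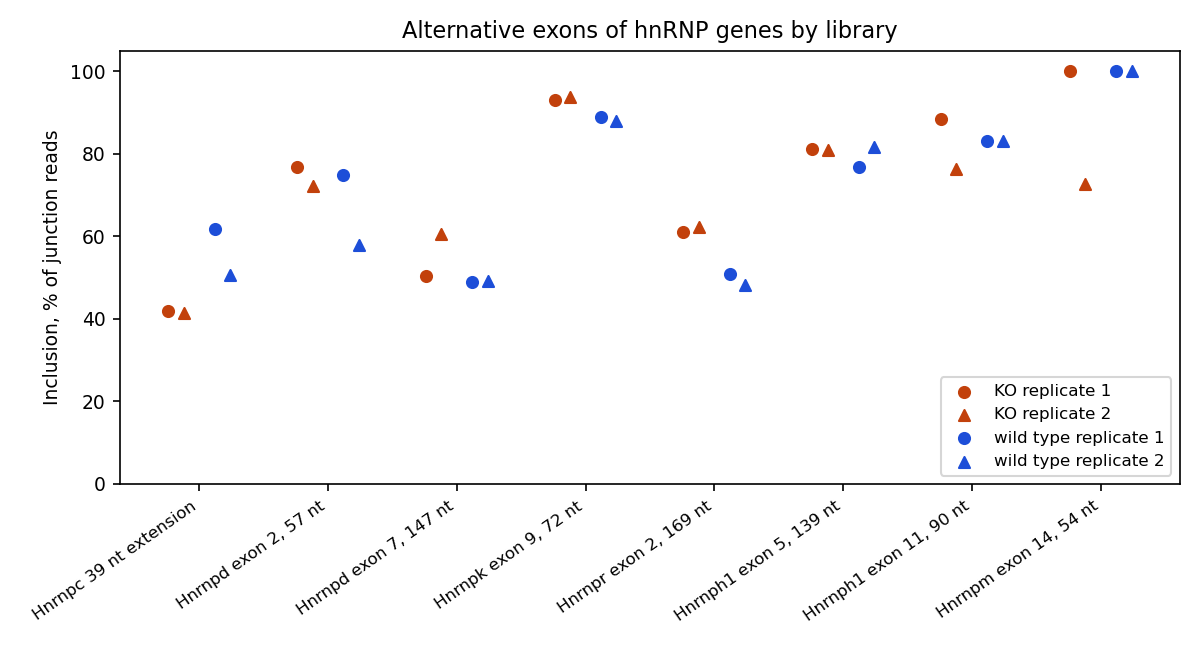
Inclusion of alternative exons in each library, in percent of junction reads (vertical axis), for the 39 nt extension of Hnrnpc exon 4 (share of reads at the acceptor) and 7 exons of 5 genes (inclusion over inclusion plus skipping). KO (orange) lies left of wild type (blue). The groups do not overlap for Hnrnpc, Hnrnpd exon 7, Hnrnpk exon 9 and Hnrnpr exon 2. Over all exons tested, KO lies above without overlap in 22.3% and below in 14.9%. Over all shares at splice sites, these were 19.1% and 19.0%. KO replicate 2 alone lies at 72.7% for Hnrnpm exon 14.

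The members differ in how much of their sequence exists elsewhere in the genome, which bears on how far a short read can be assigned, and the authors kept reads with a mapping quality of at least 10. Of the 50-base windows of the coding sequence, 96.1% in Hnrnpf, 80.8% in Hnrnpa1, 75.0% in Hnrnpk, 38.5% in Hnrnpc and 32.5% in Hnrnpr also occur in a transcript of GENCODE M21 at another locus. The share was 3.70% in Hnrnpa2b1, 0.616% in Hnrnph1 and 0 in Hnrnpd, Hnrnpm and Hnrnpu. The Hnrnpa1 windows were found in 19 other genes, of which 18 are annotated as pseudogenes, and the Hnrnpf windows in 9, of which 7 are. Counts of Hnrnpa1, Hnrnpf, Hnrnpk, Hnrnpc and Hnrnpr are therefore uncertain in level. Junction reads per 100 gene reads also differed: Hnrnpk had 99.3, the 98.9th percentile of 13090 tested genes with a known junction, against a median of 10.3 over these genes. Hnrnpa1 had 29.8, Hnrnpc 29.6, Hnrnpf 26.9 and Hnrnpr 18.6, and the remaining 5 members lay between 12.9 and 17.6. By this measure, the 5 genes with over 30% shared windows had the 5 highest values among the 10. The measure was chosen after values had been seen. By the whole-transcript measure run first, Hnrnpr (6.5%) and Hnrnpc (12.3%) lay below Hnrnpm (28.8%), whose junction value of 12.9 was the lowest. In Hnrnpf, 981 of the 1965 known junction reads came from donors before the start of the transcript row used for its gene reads.

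**Figure D4:**
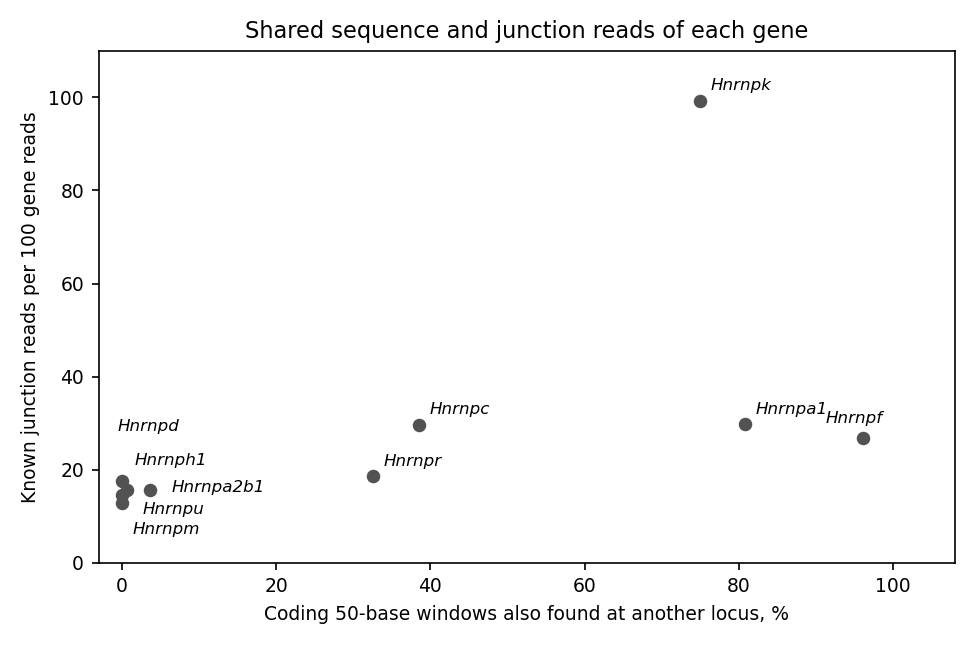
Known junction reads per 100 gene reads (vertical axis) against the percent of coding 50-base windows that also occur at another locus (horizontal axis), one point per gene, over all 4 libraries. Hnrnpk lies at 75.0% and 99.3, and the genes with no shared windows lie between 12.9 and 17.6.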

How the data were processed

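For each of 4 libraries the authors deposited raw read counts per RefSeq transcript with RPKM values and reads per nucleotide, and raw counts for exon-exon junctions; per the file headers, only primary alignments were counted, at a minimum mapping quality of 10. The genome build is mm9, per the submitters' processing notes. The sources used here give neither the aligner nor whether strand was used, so reads of overlapping antisense genes cannot be told apart. Mapped reads per the file headers were 69061265 and 75485061 in KO, against 99782558 and 122619310 in wild type, and junction reads numbered 3302915 and 3515308 in KO, against 4759678 and 6146421 in wild type. Reads per nucleotide were only checked.

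The transcript row with the most reads was kept per gene. The test of counts used edgeR 4.0.16 under R 4.3.3 (robust quasi-likelihood fit, TMM scaling, filterByExpr, Benjamini-Hochberg adjustment over all features, threshold 0.05). CPM values were computed from these counts, and RPKM values are the authors'. The diffSpliceDGE test took junctions with a sum of 10 or more reads, where their gene had 2 or more of them. The exon test needed 10 or more reads in each library and 5 or more of inclusion and of skipping in sum; its edgeR model held library terms and an inclusion-by-KO term. Inclusion was computed from the averaged reads of both flanking junctions, divided by that average plus the skipping reads. Shares at a splice site were described where the site had at least 100 reads and the share lay between 5 and 95%. Scripts were tested on simulated data. Alternatives used DESeq2 1.42.0 and limma 3.58.1. Intervals (95%) and the upper limits for zero counts (3 reads) reflect counting error alone, since PCR copies are not independent.

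The members and lists were chosen with earlier results of these data known. All 10 members are named, with every member junction at an unadjusted p under 0.05, every member exon tested except 1 and, of the other family genes, those at an unadjusted p under 0.05 and Hnrnpl. That exon and 1 gene of the list are not reported here. Several choices were made after values had been seen. The exon test was first run on every span between an upstream and a downstream junction, which gave 5561 spans; it was then restricted to spans with no known junction inside, since the first run had taken several exons together. The window measure was first run on whole transcripts against any other gene. It gave 46.4% for Hnrnpa1, 69.6% for Hnrnpf, 40.6% for Hnrnpk, 28.8% for Hnrnpm, 12.3% for Hnrnpc and 6.5% for Hnrnpr. It was then changed to coding sequence and other loci. The comparison of transcript rows and the choice of sequences shown were also made then. Exon numbers are those of a matching GENCODE M21 transcript.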

Additional observations from a re-analysis of the deposited data

How the results depend on the processing

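None of the 14 alternative settings of the gene test called a member, nor did the 8 of junction usage. The count of all genes called, 1 by edgeR, was 103 with DESeq2, 0 with limma-voom, 0 with upper-quartile scaling, 62 with no filter on low counts, 3 with known junction reads, 3 without small RNA and host genes and 0 without robust moderation. With 1 library left out, assuming that the lone library of a group varies like the other group, it ran from 2 (wild-type replicate 1 left out) to 427 (KO replicate 1 left out), with 13 without KO replicate 2 and 43 without wild-type replicate 2. With the mouse number as a replicate block it was 121, Cirbp was the 1 call among the other family genes, and 10 junctions were called in place of 4. For the other family genes, calls are given here only for settings that kept all 4 libraries. The labels do not pair the mice, and the differences between replicates 1 and 2 correlated over genes at 0.296 between the groups. Junction usage gave 2 calls with known junctions only and 1 with limma. With 1 library left out it ran from 3 (without KO replicate 1) to 12 (without wild-type replicate 2), with 9 without KO replicate 2 and 7 without wild-type replicate 1. Exon inclusion gave 2 calls, against 0, with the upstream junction alone; the spans first tested gave 0, with a smallest adjusted p of 0.865, 195 at an unadjusted p under 0.05, and 52 in members, 16 with both KO libraries above (20.8% of all spans) and 17 below (14.5%).

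Of 140 member fold changes under alternatives, 132 kept their sign and 8 turned. Hnrnph1 was 0.029 and Hnrnpk 0.0059 with upper-quartile scaling, and Hnrnpf was 0.10, Hnrnph1 0.051 and Hnrnpk 0.0058 by known junction reads. With 1 library left out, Hnrnph1 ran from -0.084 to 0.032 (above 0 without KO replicate 2 or wild-type replicate 1) and Hnrnpu from -0.017 (without wild-type replicate 1) to 0.13. Of 142 exon values, 132 kept their sign and 10 turned (log2 odds change). Hnrnph1 exon 13 was -0.017 with the upstream junction alone, and Hnrnph1 exon 11 was 0.026 and Hnrnpu exon 2 -0.095 with the downstream junction alone. With 1 library left out, Hnrnph1 exon 13 ran from -0.45 to 0.70, exon 11 from -0.61 to 0.64 and exon 5 from -0.066 to 0.36, Hnrnpd exon 2 ran from -0.0087 (without wild-type replicate 2) to 1.11, and Hnrnpu exon 2 from -0.49 to 1.52. The cause of these changes was not tested.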
